A study of Petromyzon marinus and Lampetra planeri with 28 samples.

Results

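The widest stretches of accessible chromatin in the sea lamprey peak set are described here. These are the consensus peaks that spanned 2000 bp or more, and they were chosen by width alone. There were 2398 such peaks among 236315 (1.01%), and they held 5.89% of all peak bases. ATAC-seq maps DNA that a transposase can reach, and a peak is a stretch where its cuts pile up above the local background. The study profiled lamprey neural crest (NC), the migratory cell population that forms at the dorsal neural tube (DNT) of vertebrate embryos. Sea lamprey ATAC-seq covered dissected cranial DNTs at Tahara stages T20 and T21 and whole heads at T23, with 3 libraries of each. Brook lamprey ATAC-seq covered the same tissues and stages with 3, 4 and 3 libraries. RNA-seq covered sea lamprey DNTs at T18 (3 libraries), T20 (2) and T21 (3).

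All embryos were unmanipulated. Each sea lamprey ATAC-seq library pooled 20 DNTs or 6 heads, each brook lamprey library 11 to 20 DNTs or 6 heads, and each RNA-seq library 30 DNTs at T18 or 35 at T20 and T21. A DNT is a mixed tissue in which the NC is only a part. The labels do not say whether the pools of a stage came from separate clutches, so p-values measure the spread between pools. RNA-seq libraries held 12172421 to 91015285 counts. Summed normalised counts of the NC marker loci (8 loci, among them SOX10, Foxd3 and Tfap2a) were 5257 to 5813 at T18 and 21736 to 22865 at T21. Those of 7 epidermal loci, Krt8 among them, were 17499 to 21369 at T18 and 114600 to 134599 at T21, and those of 5 endodermal loci were 817 to 1672 and 29.2 to 41.3. The sums of 7 neural tube loci were 5153 to 5654 at T18 and 7449 to 8435 at T21. Those of 14 loci from a mesoderm and muscle list were 18742 to 20375 and 26243 to 29218. That list took every name starting with MYH, so it includes the non-muscle myosins MYH10 and Myh14. Its sum is therefore not a measure of mesoderm or muscle. The blood locus gata1-a had 546 to 787 and 340 to 391. The 2 T20 libraries lay far apart, with NC sums of 10785 and 19023 and epidermal sums of 37726 and 81949. The part of these tissues in the stage differences below was not tested. In such bulk tissue, fewer cells of a type and less RNA per cell cannot be told apart.

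Accessible chromatin at active promoters and enhancers is usually a short gap in the nucleosome array, bound by transcription factors. Longer accessible stretches are known from clusters of enhancers, from developmental gene loci and from repeated or very strongly transcribed DNA. A wide interval can also arise when neighbouring intervals are joined, and the deposited sea lamprey set was made by merging the peaks of the 3 stages. The files hold positions only, so depth, peak height, stage and replicate spread of a peak are unknown, and shares of peaks are given as descriptions without a test.

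The median width was 2402.5 bp for the wide peaks and 341 bp for all sea lamprey peaks. Of the wide peaks, 1347 spanned 2000 to 2499 bp, 527 spanned 2500 to 2999 bp, 360 spanned 3000 to 3999 bp, 120 spanned 4000 to 4999 bp and 44 were wider still. The widest spanned 7679 bp. No gap in the distribution marks the threshold, since 203 peaks spanned 2000 to 2049 bp and 194 spanned 1950 bp to just under 2000 bp. The brook lamprey set had 387 peaks of 2000 bp or more among 314377 (0.123%).

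The wide peaks lay mostly on short scaffolds of the sea lamprey germline genome assembly. The extent of a scaffold is taken here as the highest coordinate of any peak or exon on it, a lower limit of its length that a wide peak can itself set. Of the wide peaks, 1298 (54.1%) lay on scaffolds with an extent under 20 kb. The share was 29.4% for peaks of 1000 to under 2000 bp and 12.6% for peaks under 1000 bp. Conversely, 692 wide peaks (28.9%) lay on scaffolds of 1 Mb or more, against 53.4% and 73.6% of the narrower classes. In all, 1676 of 11698 scaffolds carried a wide peak, 1248 of them under 20 kb.

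**Figure D1:**
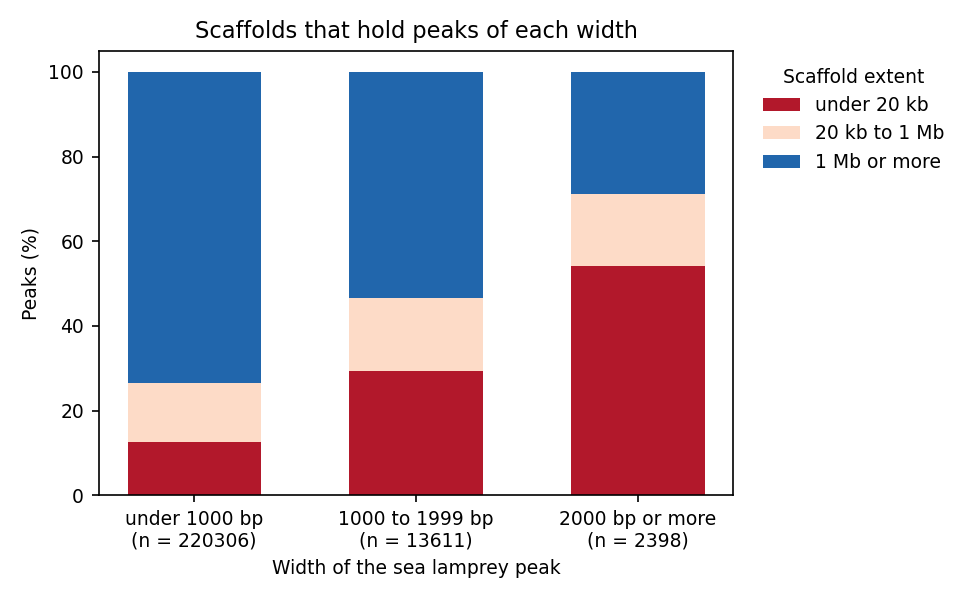
Share of sea lamprey peaks (vertical axis, %) on scaffolds of each extent, for peaks under 1000 bp, of 1000 to under 2000 bp and of 2000 bp or more. Scaffolds under 20 kb held 12.6%, 29.4% and 54.1% of the 3 classes.

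Many of the wide peaks covered much of the extent of their scaffold. As the extent is a lower limit of the length, these shares are upper limits for the scaffold itself. A single wide peak spanned at least 50% of the scaffold extent in 492 cases (20.5%) and at least 90% in 167 cases (6.96%). In 488 cases the peak began within 300 bp of the first base of the scaffold, and 438 of these scaffolds were under 20 kb. Peaks at such positions can continue beyond the end of the assembled sequence, which these files cannot show. On the 105 scaffolds of 1 Mb or more, wide peaks were spread thinly. They occurred on 96 of them, at 0.222 to 4.04 per Mb with a median of 0.771 per Mb. Neighbouring wide peaks lay within 10000 bp of each other in 77 pairs and within 2000 bp in 19. The 2398 wide peaks lay on 1676 scaffolds, so many had no wide neighbour on their scaffold. No expected number of pairs was computed. A narrower peak was close more often, as 30.8% of wide peaks and 26.1% of all peaks had another peak within 300 bp.

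The 10 widest peaks spanned 6506 to 7679 bp. The centres of all 10 lay outside every transcript of a stranded locus spanning 1500 bp or more. These peaks lay on scaffolds with extents of 6667 to 127012 bp. The widest, on scaf_01848 from 177 to 7855, had no start of such a locus on its scaffold. A single brook lamprey peak of 7696 bp covered 99.7% of it. Brook lamprey peaks covered at least 99.5% of 6 of the 10. They covered 32.8% of that on scaf_07960 (263 to 6981), and none of the other 3 met a brook lamprey peak. Peaks on scaf_08051 (133 to 7053), scaf_08059 (141 to 7002) and scaf_08371 (162 to 6667) lay almost whole in brook lamprey peaks. Each spanned over 97% of the extent, but its own end is the highest coordinate known there, so this share was set by the peak.

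Only 2 of the 10 had a stranded locus spanning 1500 bp or more on the same scaffold. The peak on scaf_01767, from 143 to 7511, had its centre 12747 bp from the start of CFL2 (XLOC_064960), which encodes the actin-severing protein cofilin. Its normalised counts were 220, 267 and 286 at T18, 294 and 249 at T20 and 261, 360 and 408 at T21. The groups overlapped and the change did not pass the test (log2 fold change 0.40 ± 0.20 SE, edgeR adjusted p = 0.142). The peak on scaf_00272, from 7421 to 13964, lay 5953 bp from the start of dhx9 (XLOC_060779), an RNA helicase. Its normalised counts were 303, 321 and 443 at T18, 268 and 480 at T20 and 414, 422 and 406 at T21, which also overlapped (0.19 ± 0.21 SE, adjusted p = 0.548).

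On scaffolds of 1 Mb or more the widest peaks were shorter, at 4706 to 5982 bp for the first 10, and they met brook lamprey peaks less. Of these 10 peaks, 7 overlapped no brook lamprey peak at all. The widest, on scaf_00004 from 24026932 to 24032913, lay 77539 bp from the nearest start of a stranded locus spanning 1500 bp or more. The 5 widest peaks more than 50000 bp from a start on their scaffold also included peaks on scaf_00052 (8207888 to 8213471), scaf_00041 (5964443 to 5969748), scaf_00040 (2677142 to 2681847) and scaf_00005 (12906083 to 12910673). The first of these had its centre 192322 bp from the nearest start, and its end is the highest coordinate on the scaffold. The peak on scaf_00005 lay in an intron of XLOC_006852, 51799 bp from the start of the integrin gene ITGB1 (XLOC_006853), and 81.3% of it lay in brook lamprey peaks. The other 4 met none.

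Wide peaks seldom lay at the start of a gene. Position was taken from the centre of the peak, relative to transcripts of loci with a strand and a span of 1500 bp or more. A centre counted as at a start from 1000 bp before it to 100 bp after it. Only 39 wide peaks (1.63%) lay at a start, against 6.81% of peaks of 1000 to under 2000 bp and 6.00% of peaks under 1000 bp. A further 30 (1.25%) lay at a transcript end, 83 (3.46%) in an exon and 345 (14.4%) in an intron. The remaining 1901 (79.3%) were intergenic, against 59.6% and 46.9% of the narrower classes.

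Short scaffolds seldom carry a stranded locus of 1500 bp or more, and 1347 wide peaks (56.2%) had no start of such a locus on their scaffold. The order of the classes at starts was the same on long scaffolds alone. On scaffolds of 1 Mb or more, 20 of 692 wide peaks lay at a start (2.89%), against 9.86% of peaks of 1000 to under 2000 bp and 6.69% of those under 1000 bp. There 51.2% of wide peaks were intergenic, against 40.7% and 37.3%, and 37.6% lay in introns, against 41.2% and 46.2%. The share at starts was highest at intermediate widths. It was 5.33% under 500 bp, 8.37% at 500 to 999 bp, 7.63% at 1000 to 1499 bp, 4.26% at 1500 to under 2000 bp, 2.15% at 2000 to 2499 bp, 1.33% at 2500 to 2999 bp, 0.556% at 3000 to 3999 bp and 0.610% at 4000 bp or more. The centre is a strict measure for a wide interval, and 131 wide peaks (5.46%) held a transcript start anywhere inside, against 9.69% and 3.72% of the narrower classes. Their centres lay downstream of the start in 93 cases and upstream in 38, at a median of 441 bp downstream.

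**Figure D2:**
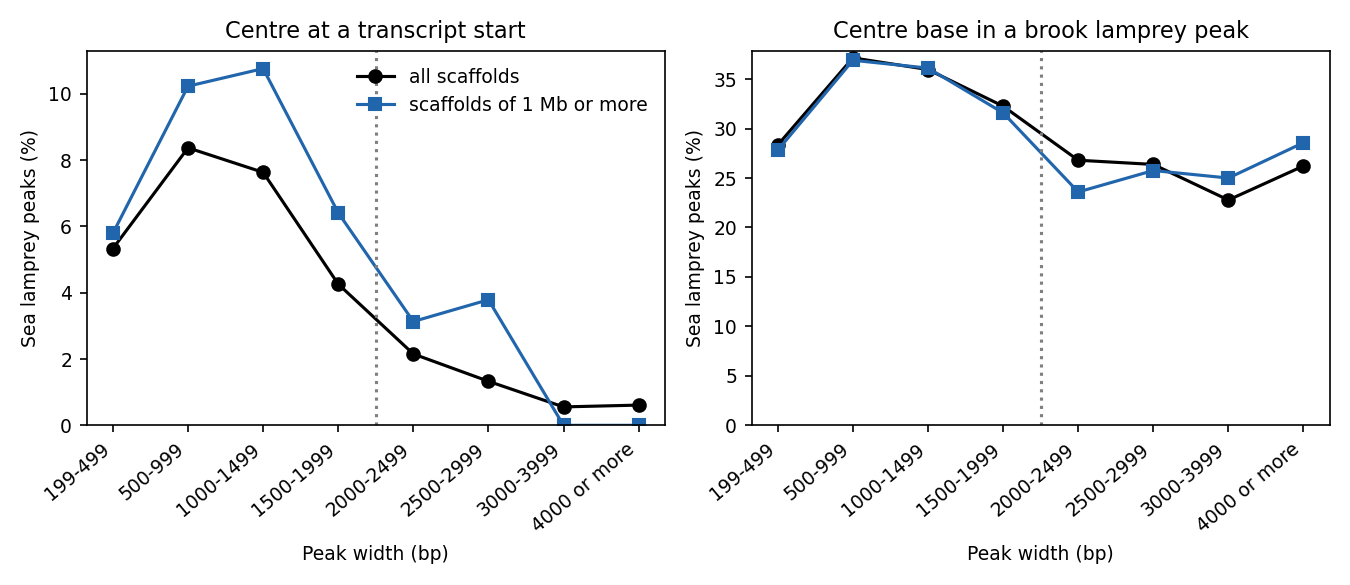
Share of sea lamprey peaks (vertical axes, %) whose centre lay at a transcript start (left) and whose centre base lay in a brook lamprey peak (right), by peak width in bp, with the threshold of 2000 bp as a dotted line. Black circles stand for all scaffolds and blue squares for scaffolds of 1 Mb or more, and the share at starts came to 2.15% at 2000 to 2499 bp against 8.37% at 500 to 999 bp.

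Where a start was at hand, the distance of wide peaks from it was close to that of all peaks, and longer on long scaffolds. Starts here are those of stranded loci of 1500 bp or more. The 1051 wide peaks with such a start on their scaffold had a median distance of 10290 bp, against 10533 bp over all peaks. On scaffolds of 1 Mb or more the medians were 14847.5 bp for the wide peaks, 10737 bp for peaks of 1000 to under 2000 bp and 11784.5 bp for those under 1000 bp. A total of 521 wide peaks lay within 10000 bp of a start and 144 lay over 50000 bp away. A transcript without a strand was overlapped by 349 wide peaks (14.6%), while 1571 (65.5%) overlapped no locus of any kind. The 432 unstranded loci they overlapped had a median exonic length of 719.5 bp and carried 0.0754% of all counts.

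About every other wide peak was met by an accessible region of the brook lamprey, a closely related species whose reads were mapped to the sea lamprey genome. Of the 2398 wide peaks, 1168 (48.7%) overlapped a brook lamprey peak by at least 1 bp, against 54.7% of peaks of 1000 to under 2000 bp and 38.0% of peaks under 1000 bp. Overlap by any base grows with width. The centre base lay in a brook lamprey peak for 26.1% of wide peaks, 35.1% of peaks of 1000 to under 2000 bp and 30.3% of peaks under 1000 bp. Brook lamprey peaks covered 25.2%, 32.5% and 29.5% of the bases of the 3 classes. On each of these 3 measures wide peaks came below the class of 1000 to under 2000 bp. The centre measure gave 24.3%, 35.2% and 29.7% on scaffolds of 1 Mb or more, and 25.3%, 31.9% and 29.2% on scaffolds under 20 kb.

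Single wide peaks ranged from whole overlap to none. Brook lamprey peaks covered at least 90% of 237 wide peaks (9.88%) and at least 50% of 565 (23.6%), and 1230 (51.3%) met none. Those that met any overlapped a median of 2 brook lamprey peaks. A wide peak of the brook lamprey was found over 227 (9.47%). Seen from that species, 373 of its 387 wide peaks overlapped a sea lamprey peak, and 226 of them a wide one. Like the sea lamprey peaks, 173 of the 387 (44.7%) lay on scaffolds under 20 kb.

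Overlap differed with position. The centre lay in a brook lamprey peak for 17 of the 39 wide peaks at starts (43.6%), 14 of 30 at transcript ends (46.7%), 35 of 83 in exons (42.2%), 109 of 345 in introns (31.6%) and 450 of 1901 intergenic ones (23.7%). For the 131 wide peaks that held a start it was 56 (42.7%).

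The wide peaks were tied to 1210 loci, namely 565 whose span held the centre of a wide peak and 982 whose start was the nearest to it, with some loci in both sets. Their levels were close to those of other genes, at a median of 24.7 normalised counts per kb of exon against 26.7 for all 25294 stranded loci of 1500 bp or more. Loci that held the centre of a wide peak in their span had a median span of 58817 bp against 10517 bp. A longer span holds the centre of a peak of any width more often, and loci with narrower peaks were not compared. These values therefore say nothing about wide peaks in particular. Gene names were at hand for 205 of the 1210. Expression was followed over the stages with edgeR, and 867 of the 1210 loci passed its filter on low counts.

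From T18 to T21, 323 of the 867 tested loci changed (37.3%), beside 33.6% of all 25317 tested loci. Of these, 175 rose (20.2%, background 18.9%) and 148 fell (17.1%, background 14.7%), and the median log2 fold change was -0.07 beside -0.03 over all loci. The split depended on the scaling, since upper quartile normalisation moved the median of all loci to -0.18 and gave 144 rises and 209 falls. Over all loci that setting gave 4051 rises and 5258 falls, so the turn is not particular to wide-peak loci. The split also depended on which loci were taken. Of 426 tested loci whose span held the centre, 68 rose (16.0%) and 84 fell (19.7%). Of 695 tested nearest-start loci, 144 rose and 119 fell. A width of 3000 bp or more gave 22 rises and 32 falls, and 1500 bp or more gave 511 and 390. From T18 to T20, 168 of the 867 loci changed (19.4%, background 17.3%), 104 upwards (background 10.8%) and 64 downwards (background 6.51%). Upper quartile normalisation turned that split too, to 85 and 99, beside 2279 and 2571 over all loci. Without T18 replicate 2, 111 of 841 loci changed in this step. From T20 to T21, 98 changed (11.3%, background 9.8%), with 54 rises (background 5.4%) and 44 falls (background 4.4%). Upper quartile normalisation gave 50 and 56, beside 1295 and 1478 over all loci, and the split was 32 and 37 without T21 replicate 3. The count of 98 was 150 without T20 replicate 2 and 55 without T21 replicate 1 or without T21 replicate 2. The shares of the 867 loci were thus near those of all loci in each step. All tested loci include 5902 without a strand, which cannot be wide-peak loci, and 15.6% of these changed from T18 to T21. Of stranded loci of 1500 bp or more with no start in a peak, 39.9% of 9680 changed. With a start in a peak under 1000 bp it was 45.3% of 6702, and with one of 1000 to under 2000 bp 36.1% of 1261. The share of all loci is thus low as a comparison for wide-peak loci.

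The courses over the 3 stages were near the background as well. Of the 867 loci, 75 rose by T20 and did not change further by the test (8.65% against 8.21% of all loci). A further 26 rose only after T20 (3.00% against 2.71%) and 22 rose in both steps (2.54% against 2.07%). In the other direction, 48 fell by T20 without a later change (5.54% against 4.93%). Another 27 fell only after T20 (3.11% against 2.88%) and 10 fell in both steps (1.15% against 0.96%). Only the comparison of T21 with T18 passed the test for 55 loci that were higher (6.34% against 7.14%) and 71 that were lower (8.19% against 7.20%). A further 7 rose and then fell (0.807% against 0.557%), and 6 fell and then rose (0.692% against 0.624%). No comparison passed the test for 520 loci (60.0% against 62.7%).

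Loci with a start of any of their transcripts inside a wide peak were taken as a set after the data were seen. There were 145, of which 106 were tested, and 31 of these changed between T18 and T21 (29.2%, background 33.6%). Of the 31, 26 fell (24.5%, background 14.7%) and 5 rose (4.72%, background 18.9%). The median log2 fold change of the 106 was -0.36, beside -0.03 over all loci. Of the 106, 45 had all T21 libraries below all T18 libraries and 11 had them above, so 52.8% did not overlap, beside 50.5% of all tested loci (5985 below and 6798 above). Of the 26, 10 lay on scaffolds of 1 Mb or more and 9 on scaffolds under 20 kb. Of the 5 that rose, 4 and 1 lay there, and of all 145 loci 79 and 36. The tested loci were not counted by scaffold, so the shares of falls on long and short scaffolds were not compared. Across 14 other settings of the test, between 19 and 33 of these loci fell and between 3 and 8 rose. The lowest counts came without T21 replicate 1, with 19 falls and 3 rises among 108 tested loci. Over all 25892 loci tested in that setting, 2808 fell and 4000 rose, so calls over all loci varied with the setting too.

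Narrower peaks at starts gave other shares. These classes hold only stranded loci of 1500 bp or more, so they are a closer comparison than all tested loci. Among loci whose start lay in a peak of 1000 to under 2000 bp, 226 of 1261 tested rose (17.9%) and 229 fell (18.2%). Where the widest peak at the start was under 1000 bp, 1643 of 6702 rose (24.5%) and 1390 fell (20.7%). Where no start lay in a peak, 2276 of 9680 rose (23.5%) and 1588 fell (16.4%). Rises were thus less frequent at the wide peaks than in each of these classes, with 5 loci behind the value. The loci in a class are not replicates, so the difference between classes was not tested.

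**Figure D3:**
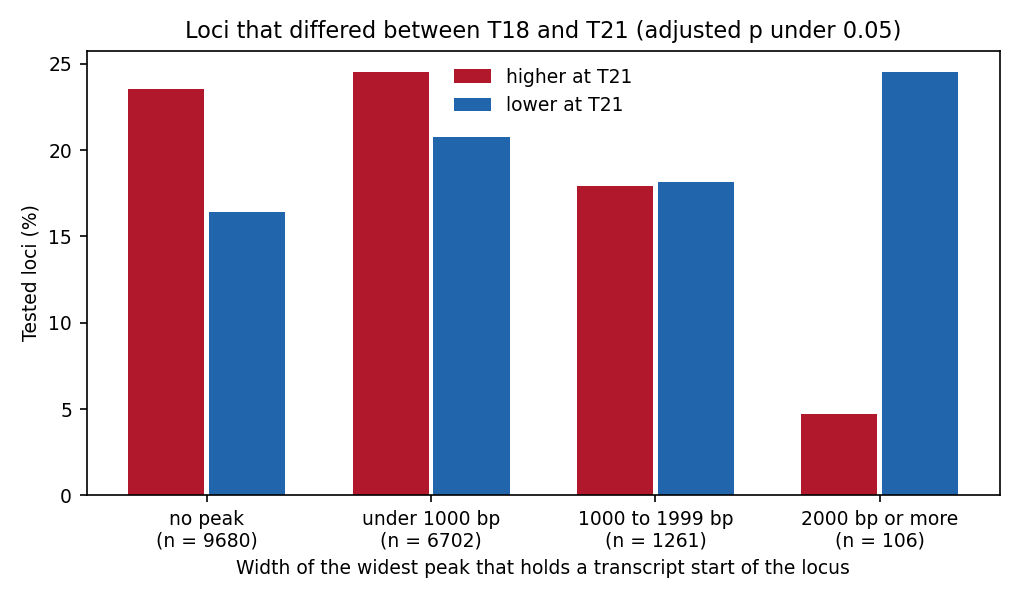
Share of tested loci (vertical axis, %) that were higher (red) or lower (blue) at T21 than at T18 by the edgeR test, by the width of the widest peak that held a transcript start (horizontal axis). At wide peaks 4.72% of 106 loci were higher and 24.5% lower, against 24.5% and 20.7% of 6702 loci at peaks under 1000 bp.

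Transcripts without a strand that a wide peak overlapped were also lower more often than higher at T21. Of 145 tested, 16 fell and 2 rose from T18 (12.4% changed), while of all 5902 tested unstranded loci 539 rose and 381 fell (15.6% changed).

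Gene names were at hand for 15 of the 145 loci that started inside a wide peak. The names mostly belong to loci that changed, because the tables that give them list such loci, so 11 of the 31 changed loci were named. Among the named ones, 7 fell, 4 rose and 4 did not pass the test. They are given here because a start lay inside a wide peak, a choice made after their values were seen. That start can be of any transcript, while counts are summed over the whole locus and are not tied to it. Among the named loci that fell, the outermost start lay inside the peak at CLU alone. Among those that rose, the outermost start lay inside it at GLRX, NIPAL2 and TLCD1 but not at Vwa5a/RPS15.

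EXOSC10, the nuclease of the nuclear RNA exosome, had a transcript start within the locus inside a wide peak at both XLOC_027340 and XLOC_062559. The outermost start of each locus lay outside the peak. At XLOC_027340 (scaf_00026, 13417704 to 13424644, minus strand) the peak ran from 13417467 to 13419863, and 25.4% of it lay in brook lamprey peaks. Normalised counts there were 74.9, 61.1 and 82.5 at T18, 43.3 and 27.9 at T20 and 29.2, 22.9 and 21.1 at T21. The stages did not overlap between T18 and either later stage, and the fall from T18 to T21 passed the test (log2 fold change -1.63 ± 0.34 SE, adjusted p = 0.00227). At XLOC_062559 (scaf_00566, 42689 to 49182) the peak spanned 3216 bp, and the counts were 140, 135 and 195, then 118 and 70.8, then 42.8, 64.3 and 64.8. This locus fell as well (-1.45 ± 0.30 SE, adjusted p = 0.00192).

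The name EXOSC10 stands at 5 loci in all, and each of the 5 was tied to a wide peak. Among 295 names that stand at 3 or more loci, 44 had a wide peak at any locus, and EXOSC10 was the only name with one at every locus. Besides the former pair, these are XLOC_009388 on scaf_00007, XLOC_061447 on scaf_00355 and XLOC_067523 on scaf_03944. XLOC_061447 had 2 wide peaks, of 3127 bp in an intron and of 2082 bp upstream of the start. Its counts were 1218, 1063 and 1327 at T18, 831 and 506 at T20 and 449, 514 and 544 at T21 (-1.27 ± 0.17 SE, adjusted p = 9.14e-05). XLOC_067523, on which a peak of 3334 bp sat, went from 668, 592 and 718 to 311, 236 and 306 (-1.23 ± 0.16 SE, adjusted p = 5.28e-05). XLOC_009388, with a peak of 2704 bp, went from 594, 611 and 595 to 360, 407 and 346 (-0.71 ± 0.15 SE, adjusted p = 0.00267). All 5 loci passed the test as lower at T21, a set singled out after its values were seen, beside falls in 14.7% of all tested loci. Names favour loci that changed, and 3780 of 4704 tested named loci (80.1%) changed in either direction. The share of all loci is thus too low a comparison for loci found by name. Reads with several mappings were counted at each place, so similar copies can share counts and the 5 are not independent.

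NXF1 (XLOC_001804; scaf_00002, 11687974 to 11694843, plus strand) is the main export receptor for mRNA. Its wide peak, from 11691854 to 11694698, had its centre 42 bp from a transcript start within the locus. Normalised counts were 87.4, 86.7 and 96.0 at T18, 68.8 and 35.4 at T20 and 40.9, 21.4 and 25.2 at T21. They did not overlap between T18 and T21, and the fall passed the test (-1.68 ± 0.36 SE, adjusted p = 0.00246). IMP4 (XLOC_063061), a factor of ribosomal RNA processing, had a peak of 3037 bp. Its counts went from 295, 377 and 367 at T18 through 212 and 164 at T20 to 146, 144 and 150 at T21 (-1.26 ± 0.19 SE, adjusted p = 0.000164). BCDIN3D (XLOC_069147), an RNA methyltransferase, had counts of 373, 520 and 326 at T18, 416 and 475 at T20 and 255, 265 and 198 at T21. It was thus lower only in the last stage (-0.79 ± 0.19 SE, adjusted p = 0.00588).

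The other 2 named loci that fell were a locus that carries the name of a histone H4 gene and clusterin. The histone locus (XLOC_034386, named Histone H4-VIII) had 2 wide peaks, of 2456 and 3005 bp, and counts of 50.0, 54.5 and 51.1 at T18, 20.9 and 18.6 at T20 and 23.3, 15.3 and 16.7 at T21 (-1.53 ± 0.36 SE, adjusted p = 0.00482). The locus spans 100227 bp with 4821 bp of exon, so it is uncertain whether the counts belong to the histone gene. Histone genes are repeated in most genomes, so its counts can also be shared with other copies. CLU (XLOC_002024), which encodes the secreted chaperone clusterin, had 134, 82.6 and 82.2 at T18, 85.2 and 104 at T20 and 42.8, 39.8 and 49.6 at T21 (-1.16 ± 0.30 SE, adjusted p = 0.00880). The CLU locus spans 48421 bp with 1273 bp of exon, so the same doubt about the gene applies.

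The 4 named loci that rose were GLRX, Vwa5a/RPS15, NIPAL2 and TLCD1. GLRX (XLOC_039607), which encodes the redox enzyme glutaredoxin, had a wide peak of 2230 bp with its centre 694 bp upstream of the start and no brook lamprey peak in it. Its counts were 78.7, 60.3 and 59.2 at T18, 190 and 490 at T20 and 588, 598 and 498 at T21. The groups lay far apart (3.08 ± 0.30 SE, adjusted p = 8.99e-06). The locus named Vwa5a and RPS15 (XLOC_054466) rose from 57.4, 39.6 and 47.0 at T18 through 181 and 147 at T20 to 325, 399 and 300 at T21 (2.82 ± 0.23 SE, adjusted p = 9.49e-07). It spans 83877 bp and carries 2 names, so it is uncertain which gene the counts belong to. NIPAL2 (XLOC_046722) had 74.9, 53.7 and 50.0 at T18, 120 and 171 at T20 and 298, 286 and 228 at T21 (2.18 ± 0.24 SE, adjusted p = 1.75e-05). TLCD1 (XLOC_012770) differed least, at 375, 382 and 406 against 531, 505 and 499 (0.38 ± 0.12 SE, adjusted p = 0.0312). Its call was lost without any 1 of the T18 or T21 libraries (adjusted p from 0.0512 to 0.108) and under upper quartile normalisation (0.165).

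**Figure D4:**
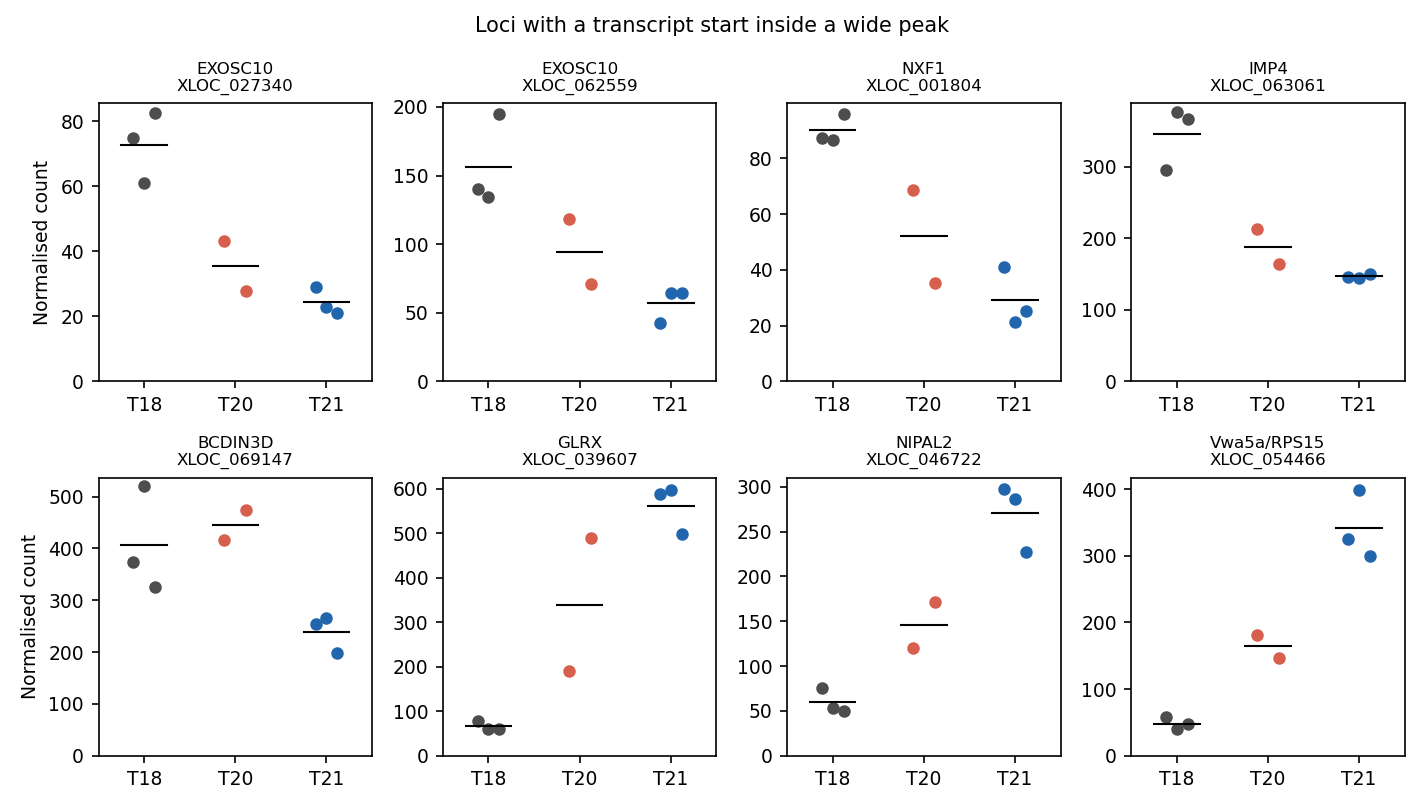
Normalised counts (vertical axes) in each library at T18 (grey, n = 3), T20 (orange, n = 2) and T21 (blue, n = 3) for 8 loci with a start inside a wide peak, with the mean as a bar. EXOSC10, NXF1, IMP4 and BCDIN3D lay lower at T21 than at T18 in every library, and GLRX, NIPAL2 and Vwa5a/RPS15 higher.

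The 4 named loci that did not pass the test from T18 to T21 were USP36, Prex2, DNAJB13 and the locus named sidkeyp-117h8.2/GOLGA6L22/Ank2. USP36 (XLOC_066341), a nucleolar deubiquitinase, had the widest peak of the named set, at 4410 bp. Its counts were 63.7, 67.7 and 75.2 at T18, 79.2 and 127 at T20 and 37.0, 49.0 and 47.0 at T21. It fell from T20 to T21 (-1.20, adjusted p = 0.0396), while the change from T18 to T21 was -0.64 ± 0.30 SE (adjusted p = 0.123). DNAJB13 (XLOC_070953), a co-chaperone of cilia and flagella, had 20.0, 23.1 and 36.2 at T18 and 56.4, 42.8 and 57.4 at T21 (0.93 ± 0.36 SE, adjusted p = 0.0654), and the test was passed without T18 replicate 3 (adjusted p = 0.0374).

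Among the unnamed loci that changed and had a start inside a wide peak, those with the largest falls among loci of 500 or more normalised counts were XLOC_010694 and XLOC_002315. XLOC_010694 lay whole in a peak of 4755 bp on scaf_00008 (16700569 to 16705323), which 5 brook lamprey peaks covered to 58.5%. Its counts were 955, 998 and 995 at T18, 619 and 436 at T20 and 294, 352 and 345 at T21 (-1.58 ± 0.14 SE, adjusted p = 2.84e-06). XLOC_002315 spans 2608 bp on scaf_00002, with a peak of 2341 bp on it that met no brook lamprey peak. It fell from 1471, 1231 and 1871 to 662 and 553 at T20 and stood at 556, 617 and 647 at T21 (-1.35 ± 0.15 SE, adjusted p = 2.09e-05).

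High levels also occurred at loci tied to wide peaks. XLOC_062156 had 19504 normalised counts per kb and fell from T18 to T21 (log2 fold change -0.46 ± 0.11 SE, adjusted p = 0.00494). XLOC_044635 had 10415 per kb and did not pass the test (0.06 ± 0.09 SE, adjusted p = 0.667). Brook lamprey peaks covered 10.2% and 13.4% of their wide peaks. XLOC_054120 on scaf_00090 spans 2345 bp, and a wide peak that lay whole in a brook lamprey peak ran from 1376253 to 1378495 over a transcript start within it. It had 9752 normalised counts per kb, with 18232, 20907 and 14224 at T18, 14986 and 19075 at T20 and 14861, 19168 and 13437 at T21 (log2 fold change from T18 to T21 -0.19 ± 0.16 SE, adjusted p = 0.439). These loci are singled out here after their values were seen.

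Developmental genes were tied to wide peaks at shares near that of named genes as a whole. Of 5007 named loci, 205 (4.09%) were wide-peak loci. The shares, which rest on few loci, were 9 of 171 loci (5.26%) for developmental transcription factors, 4 of 139 (2.88%) for signalling ligands, receptors and inhibitors and 4 of 62 (6.45%) for widely expressed genes, of which 2 rose and 2 fell, beside 19 rises and 27 falls among the 61 tested loci of that list. All 9 transcription factor loci were tested, and from T18 to T21 6 rose and 2 fell, with a median log2 fold change of 3.00. Of all 160 tested loci of this list, 81 rose and 60 fell, with a median of 0.61. The names come in part from lists of loci that changed over these stages, so these counts are not independent of direction.

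The transcription factors that rose lay beside wide peaks or held them in introns. Foxj1 (XLOC_003730), the regulator of motile cilia, had a wide peak 24438 bp upstream of its start that lay to 76.6% in brook lamprey peaks. Its counts were 58.7, 90.8 and 44.1 at T18, 288 and 266 at T20 and 605, 422 and 513 at T21 (3.00 ± 0.25 SE, adjusted p = 1.52e-06). eng2a (XLOC_006778), an engrailed homeobox gene of the midbrain-hindbrain boundary in vertebrates, had a peak of 2110 bp 33449 bp upstream. It rose from 21.2, 11.6 and 20.8 at T18 to 296 and 439 at T20 and 735, 545 and 584 at T21 (5.06 ± 0.26 SE, adjusted p = 2.12e-08). pax2a (XLOC_014823), a paired-box gene of the same boundary and the ear, held a peak of 2211 bp in an intron. Its counts were 30.0, 11.6 and 13.2, then 309 and 236, then 377, 320 and 415 (4.45 ± 0.31 SE, adjusted p = 3.31e-07).

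The Iroquois homeobox gene irx2 stands at overlapping loci, XLOC_010339 and XLOC_010340, that share a single wide peak on scaf_00008 (7009536 to 7011544). XLOC_010339 had 0, 0.826 and 3.78 normalised counts at T18, 55.3 and 72.6 at T20 and 187, 193 and 213 at T21 (6.31 ± 0.49 SE, adjusted p = 7.01e-07, and 8.31 without T18 replicate 3). XLOC_010340 had 5.00, 6.61 and 9.46, then 65.8 and 186, then 195, 156 and 175 (4.48 ± 0.42 SE, adjusted p = 3.89e-06). As the loci overlap on the same strand, they are not independent. LMX1B (XLOC_025573), a LIM homeobox gene, had a peak 20085 bp upstream and the highest level of those that rose. It had 1064, 983 and 768 at T18, 2466 and 3307 at T20 and 3743, 3459 and 3742 at T21 (1.95 ± 0.13 SE, adjusted p = 2.74e-07). Most of the gain of eng2a, pax2a and LMX1B came by T20, and their change from T20 to T21 did not pass the test (adjusted p = 0.0649, 0.400 and 0.170).

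The locus named skap-epsilon/hox-epsilon1 (XLOC_006403; scaf_00005, 927368 to 1118849, plus strand) showed the steepest fall of all named wide-peak loci that passed the test. Its wide peak, from 929225 to 931426, lay in an intron with its centre 2950 bp downstream of the nearest start, and 98.6% of it lay in a single brook lamprey peak. Counts were 12360, 10192 and 8803 at T18, 5179 and 2357 at T20 and 379, 210 and 259 at T21. All 3 stages were apart, and the log2 fold change from T18 to T21 was -5.25 ± 0.40 SE (adjusted p = 9.51e-05). The locus joins a gene of the Skap family and a gene of a Hox cluster, which specifies position along the body axis, and the counts cannot be split between them. KLF7 (XLOC_004945), a Krüppel-like factor, held a peak in an intron and fell from 101, 68.5 and 65.2 to 19.5, 30.6 and 36.3 (-1.39 ± 0.34 SE, adjusted p = 0.00670). The KLF7 locus spans 132404 bp with at most 2 exons per transcript, so the gene behind its counts is uncertain.

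The locus named Dis3/SOX1 (XLOC_044118) held the most wide peaks of this list, with 3 inside its span on scaf_00051 (4127268 to 4284688). They spanned 3985, 2434 and 2879 bp, and brook lamprey peaks covered 8.3%, 19.9% and 58.1% of them. Dis3 is another nuclease of the RNA exosome, and SOX1 a transcription factor of neural progenitors. Its counts were 1110, 1358 and 1220 at T18, 957 and 1009 at T20 and 1041, 1034 and 1029 at T21. The T21 libraries lay below those of T18, but the change did not pass the test (-0.27 ± 0.10 SE, adjusted p = 0.0526). It did in 5 of 14 other settings, with adjusted p from 0.00460 to 0.200 over all of them.

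**Figure D5:**
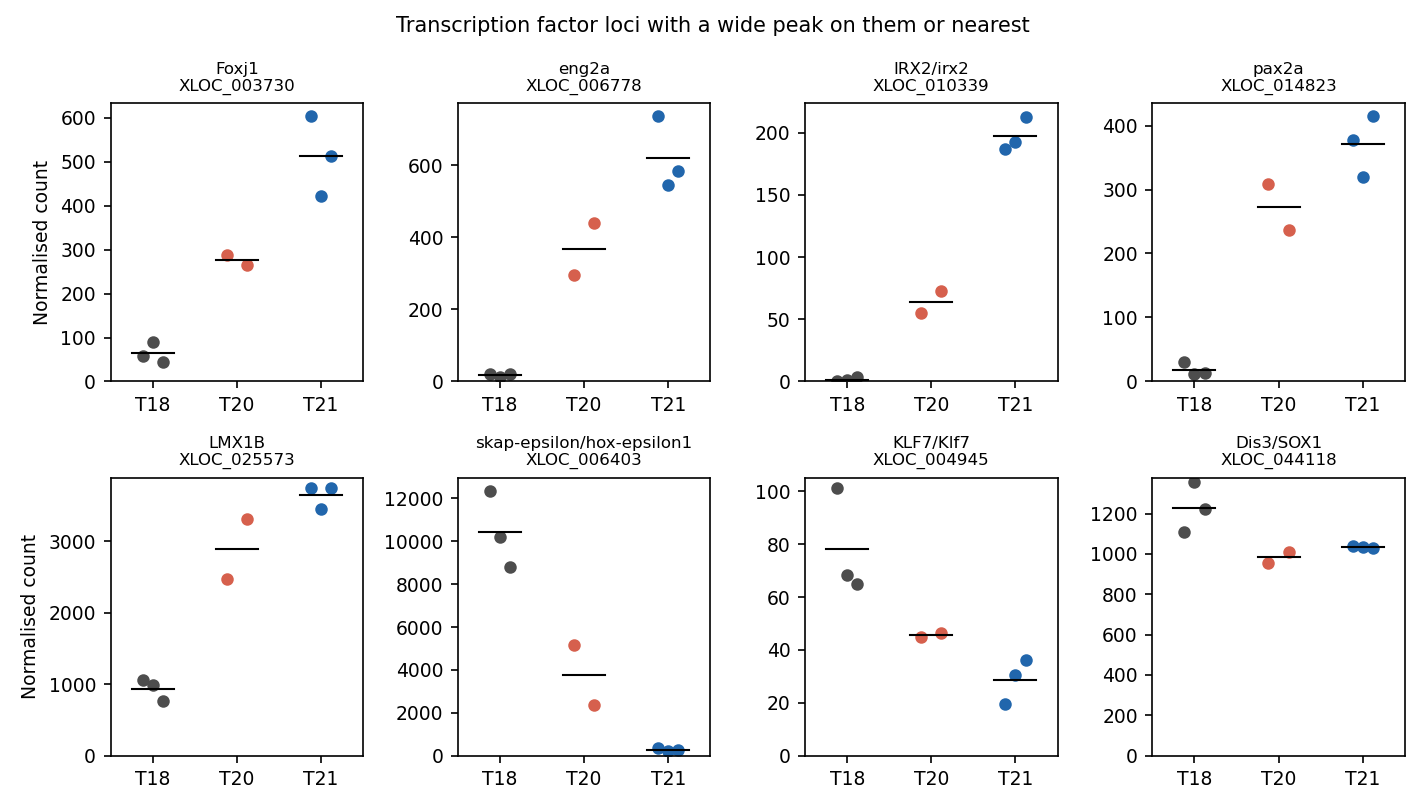
Normalised counts (vertical axes) in each library at T18 (grey, n = 3), T20 (orange, n = 2) and T21 (blue, n = 3) for 8 transcription factor loci that a wide peak sat on or lay nearest to, with the mean as a bar. Foxj1, eng2a, IRX2, pax2a and LMX1B were higher at T21 than at T18 in every library, and skap-epsilon/hox-epsilon1 and KLF7 lower.

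Of the 4 signalling loci, 3 rose and 1 fell from T18 to T21, and of all 131 tested loci of this list 70 rose and 51 fell. SMAD6 (XLOC_031111), an inhibitor of BMP signalling, had wide peaks of 2382 and 2522 bp downstream, and brook lamprey peaks covered 83.0% of the second. It had 701, 713 and 695 at T18, 1936 and 2355 at T20 and 2391, 2611 and 2447 at T21 (1.8 ± 0.09 SE, adjusted p = 2.12e-08). sema3d (XLOC_050630), a guidance ligand of the semaphorin family, rose from 588, 625 and 575 to 1127, 1137 and 1093 (0.89 ± 0.15 SE, adjusted p = 0.000379). Its wide peak of 2994 bp lay 51884 bp downstream, with 95.6% of it in brook lamprey peaks. PTCHD1 (XLOC_043682), a patched-domain gene, rose from 15.0, 6.61 and 8.92 to 60.3, 55.1 and 70.3 (2.65 ± 0.49 SE, adjusted p = 0.000937). FGFRL1 (XLOC_017609), an FGF receptor without a kinase domain, was the locus that fell, from 518, 448 and 485 at T18 to 197, 151 and 210 at T21 (-1.38 ± 0.18 SE, adjusted p = 5.64e-05).

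Of the 205 named wide-peak loci, 163 (79.5%) changed from T18 to T21 with no overlap between the libraries. So did 3769 of all 5007 named loci (75.3%), as names favour loci that changed. The 10 steepest rises among them included the irx2 loci, eng2a and pax2a. The others are given here and in the next paragraph. CFTR (XLOC_043172), which encodes a chloride channel, held a wide peak in an intron and had 0, 0 and 1.89 at T18, 13.5 and 1.86 at T20 and 97.3, 67.3 and 74.0 at T21 (6.04 ± 0.73 SE, adjusted p = 3.10e-05). Without T18 replicate 3, the only T18 library with counts of CFTR, the fitted value was 9.31. GPR98 (XLOC_015890), an adhesion receptor known from hair cells, rose from 13.7, 5.78 and 8.38 to 146 and 119 and then 350, 399 and 398 (5.41 ± 0.29 SE, adjusted p = 2.90e-08). Ceacam1 (XLOC_030424), a cell adhesion molecule, rose from 17.5, 7.43 and 18.4 to 325, 679 and 607 (5.14 ± 0.75 SE, adjusted p = 0.00142), and brook lamprey peaks covered 90.9% of its wide peak.

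SYTL1 (XLOC_042196), a vesicle protein, and PKIA (XLOC_000520), an inhibitor of protein kinase A, had at most 3 counts in every T18 library. At T21, SYTL1 stood at 38.9, 65.8 and 39.6 normalised counts, at least 20.5-fold higher than a floor of 3 counts per T18 library (adjusted p = 1.98e-05). PKIA had 12 and 48.4 at T20 and 25.3, 41.3 and 31.1 at T21, at least 13.9-fold higher than that floor (adjusted p = 0.00164). Nfasc (XLOC_061153), the adhesion molecule neurofascin, went from 0, 3.30 and 0.811 to 35.0, 33.7 and 20.4 (4.33 ± 0.86 SE, adjusted p = 0.00153), and the value of Nfasc without T18 replicate 2 was 5.32.

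Among the 10 steepest falls, the highest levels were those of skap-epsilon/hox-epsilon1 and of Ptprm/PTPRK (XLOC_037392), a receptor tyrosine phosphatase locus. The latter had 10560, 10119 and 8996 at T18, 6637 and 3815 at T20 and 2987, 2613 and 2775 at T21 (-1.84 ± 0.18 SE, adjusted p = 3.29e-05), with a wide peak in an intron. Dhcr7 (XLOC_056047), the last enzyme of cholesterol synthesis, had a peak of 4447 bp 3940 bp upstream of its start. It fell from 1425, 1575 and 1756 at T18 to 689 and 536 at T20 and 391, 352 and 396 at T21 (-2.08 ± 0.13 SE, adjusted p = 1.26e-07). MTUS1 (XLOC_023168), a microtubule-associated protein, had a peak of 3941 bp upstream and fell from 1662, 1244 and 1000 to 379, 387 and 359 (-1.81 ± 0.16 SE, adjusted p = 1.95e-06).

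The other falls were smaller in level. Fn3krp (XLOC_002136), a kinase that repairs glycated proteins, held neighbouring wide peaks of 2167 and 2438 bp and fell from 356, 364 and 357 to 87.6, 75 and 124 (-1.89 ± 0.22 SE, adjusted p = 2.71e-05). Naa15 (XLOC_005412), a subunit of the N-terminal acetyltransferase, fell from 187, 168 and 127 to 29.2, 38.2 and 47.0 (-2.03 ± 0.31 SE, adjusted p = 0.000223). MYH7 (XLOC_005088), a myosin heavy chain locus nearest to the same wide peak, fell from 76.2, 99.9 and 97.9 to 19.5, 30.6 and 20.7 (-1.99 ± 0.32 SE, adjusted p = 0.000367). tle4/gro2 (XLOC_030921), a Groucho corepressor, fell from 45.0, 61.1 and 85.2 to 9.73, 21.4 and 18.5 (-1.93 ± 0.41 SE, adjusted p = 0.00256). SALL1 (XLOC_032359), a zinc finger factor, had 50.0, 40.5 and 45.4 at T18 and 1.95, 1.53 and 17.8 at T21 (-2.26 ± 0.61 SE, adjusted p = 0.0112). The fitted value of SALL1 was -4.66 without T21 replicate 3. EXOC7 (XLOC_021359), an exocyst subunit, had 8.74, 22.3 and 39.2 at T18 and 0, 0 and 1.85 at T21 (-4.32 ± 1.08 SE, adjusted p = 0.00744). The fitted value of EXOC7 was -7.82 without T21 replicate 3 and -3.72 without T18 replicate 3. The Fn3krp locus spans 137938 bp with 740 bp of exon, and the SALL1 locus 84982 bp with 1285 bp. The Naa15 locus spans 116778 bp on the minus strand and encloses the MYH7 locus on the plus strand. It is thus uncertain whether the counts of the Fn3krp, SALL1 and Naa15 loci belong to the named genes.

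Loci tied to several wide peaks were uncommon, with 104 loci that had 2 or more. The highest number was 4, at GLRB (XLOC_027193; scaf_00026, 1959401 to 1996960, minus strand), which encodes a subunit of the glycine receptor. All 4 peaks lay upstream and outside the locus, at 14876, 365027, 410772 and 451148 bp from its start, which was the nearest to each. GLRB had 7.49, 8.26 and 6.22 at T18, 12 and 1.86 at T20 and 29.2, 32.1 and 28.1 at T21. The rise to T21 passed the test (2.01 ± 0.56 SE, adjusted p = 0.0134) but not without T18 replicate 3 (0.0582) or without T21 replicate 3 (0.0549).

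Of the other 9 loci chosen by their number of wide peaks, which have 3 each, Dis3/SOX1 was the only named one. XLOC_034521 on scaf_00036 held peaks of 3656, 2798 and 2442 bp in introns, and brook lamprey peaks covered 95.2%, 75.8% and 76.3% of them. The locus had 1 count in T18 replicate 3 and none in the other 7 DNT libraries. XLOC_050947 on scaf_00070 held peaks of 2067, 2518 and 2023 bp, the last of which lay whole in a brook lamprey peak, and had counts in 2 libraries only. XLOC_009128 rose (2.55 ± 0.72 SE, adjusted p = 0.0150) on counts of 6.24, 4.96 and 4.33 at T18, 43.3 and 3.72 at T20 and 13.6, 41.3 and 33.3 at T21. That call was lost without T18 replicate 2 or 3 or T21 replicate 2 or 3 (adjusted p from 0.0541 to 0.0662). The remaining loci of this set were not tested for low counts or did not pass the test from T18 to T21.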

How the data were processed

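Chromatin accessibility (ATAC-seq) and transcript levels (RNA-seq) were profiled in lamprey DNTs and heads. The deposited peak files give other values than levels, namely positions, per the authors' methods. The authors mapped reads of both species to the sea lamprey germline genome using Bowtie2, dropped duplicate reads (Picard 1.83), pooled the replicates of a stage, down-sampled the pools to equal reads, called peaks on each pool using MACS2 and merged the 3 stages. The authors mapped RNA-seq reads with STAR 2.4.2, assembled transcripts with Cufflinks and counted read pairs per locus, by strand and with multiple mappings, with featureCounts 1.4.6-p4. The deposited raw counts were tested here, and the deposited normalised counts, a signal equal to counts over the authors' DESeq2 size factor, are given per library. The deposited normalised table holds 56319 of 72171 loci, and counts of the others, at most 1 in all, were scaled alike. The count table has 14 header fields and 13 data fields and was read by position, checked against the normalised table. The authors' tests were not used.

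Peak widths, centres (annotated from 1000 bp before to 100 bp after a start, and 100 bp before to 1000 bp after an end), overlaps and locus assignments were computed in Python 3.11.15 (scipy 1.17.1, pandas 2.3.3, numpy 2.4.6), and plots were drawn using matplotlib 3.10.9. Differential expression used edgeR 4.0.16 in R 4.3.3 (TMM, filterByExpr, robust quasi-likelihood fit of 8 libraries, stage alone as a term, Benjamini-Hochberg adjustment over all 25317 loci, threshold 0.05) and DESeq2 1.42.0 as an alternative. Counts for T21 against T18 (23766 loci tested) were also simulated with 200 loci changed. There edgeR recovered 36.8% of loci changed by 1 on the log2 scale and 74.2% of those changed by 2, with 6 of 113 calls false. In the data 8509 loci were called, and the adjusted threshold depends on that share. The simulated recovery is thus not the power of the real test. Names came from incomplete copies of the study's supplementary tables, which name 5007 loci. Named in the text are loci of the 10 widest peaks, the 10 largest rises and falls of named loci without overlap between T18 and T21, the 10 loci with most wide peaks, regulators from lists, the 5 widest peaks far from a start, and loci marked as chosen later. Members and lists were chosen with earlier results of these data known. The genome sequence was not used here, nor were libraries of T20 heads and whole embryos.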

Additional observations from a re-analysis of the deposited data

How the results depend on the processing

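With an absolute log2 fold change of 1 or more, 176, 97 and 44 wide-peak loci changed in T21 against T18, T20 against T18 and T21 against T20. A width of 1500 bp or more gave 901, 489 and 278 and a width of 3000 bp or more 54, 29 and 22, in step with the number of loci. Loci whose span holds the centre numbered 152, 80 and 40, and loci starting inside a wide peak, added after the data were seen, 31, 15 and 10. With the 2 stages alone, 107 changed from T18 to T20 (the cause was not tested). Leaving out single libraries gave 264 to 388 loci for T21 against T18, 111 to 242 for T20 against T18 and 55 to 150 for T21 against T20. The other settings kept each count within 1.5 times. Deviations from the stage mean correlated at -0.0371 to 0.0802 between same-numbered libraries and at -0.0795 to 0.0795 between others. With 2 or 3 libraries per stage, these values cannot decide whether replicate numbers pair the libraries. The value of 0.0802 was that of replicate 3 at T18 and T21, the deepest libraries of their stages. The replicate block gave 310, 134 and 72. The share at a start was 3.15% at 1500 bp or more, 0.573% at 3000 bp or more, 8.59% with a window of 2000 bp, 7.71% for any base, 2.38% with all stranded loci and 2.89% on scaffolds of 1 Mb or more, a setting added after the data were seen. Brook lamprey overlap was 52.3% at 1500 bp or more, 23.6% with at least 50% covered, 26.1% at the centre and 9.47% with brook lamprey peaks of 2000 bp or more. Of 52 called loci named in the text or tables, 45 kept their call and direction in every setting, 7 lost it in some and none reversed. The peak files give no depth, and 343 of the 1210 loci had too few counts to test.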
